A study of Mus musculus with 4 samples.

Results

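Translation initiation factors and the 4E-BP proteins that hold them back were followed in LSK cells of SRC-3 knockout (KO) and wild-type (WT) mice. The genes were chosen by symbol: every gene whose name opens with Eif1 to Eif6 and that had a probe set annotated to it alone, leaving out the Eif2ak kinases, Eif2s3x and Eif2s3y. The rule took 46 of the 22180 genes measured. Of these, 3 were set aside for what their names say: Eif2c5 carries an older Argonaute family name, Eif1-ps3 a pseudogene name, and Eif4a3l1 is an Eif4a3-like gene. They are given separately, and the counts that follow are over the other 43, which include the 4E-BP repressors and the eIF1A-related Eif1ad. Eif1, Eif2s1, Eif3g and Eif4g1 had no probe set assigned to them alone and were not analysed here. The probe set of Eif4ebp3 was annotated to a second gene as well and was left out of the counts.

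The series holds 4 Affymetrix arrays of total RNA, 2 from KO and 2 from WT samples. The cells were lineage-negative, Sca1-positive and c-Kit-positive (LSK), the bone marrow fraction of hematopoietic stem cells and multipotent progenitors, sorted from male mice 8 weeks old after red cell lysis. KO mice lack SRC-3, the product of Ncoa3, which nuclear receptors and further transcription factors recruit to activate genes, and the comparison asks which transcripts differ in these cells without it. The making of the allele, the strain and the number of mice behind each sample were not given in the sources used here. The labels call the samples biological replicates without naming separate animals, so p-values may reflect technical spread between samples only.

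Initiation brings the small ribosomal subunit, the initiator tRNA and an mRNA together. eIF2 carries the initiator tRNA as a GTP complex, eIF2B recharges eIF2 with GTP, and eIF3 is the large scaffold on the small subunit. eIF4F (the cap-binding eIF4E, the scaffold eIF4G and the helicase eIF4A) recruits the mRNA, and the 4E-BPs block eIF4E until mTORC1 phosphorylates them. eIF1, eIF1A, eIF5 and eIF5B govern start codon choice and subunit joining. In hematopoietic stem cells the rate of protein synthesis is known to be low, and 4E-BPs take part in keeping it low.

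All values are log2 array values as deposited, and each difference is KO minus WT with its moderated standard error (SE) from limma. Ncoa3 stood at 5.35 and 5.09 on the KO arrays, against 7.76 and 7.05 on the WT arrays, a difference of -2.19 ± 0.27 (SE, limma adjusted p = 0.038). Kit, a gene of the sort gate, was at 9.43 and 9.34 in KO and at 10.33 and 9.65 in WT, and Ly6a, which encodes Sca1, was not analysed here. Of the 5 measured genes of the gate and its subsets, Kit, Cd34 and Flt3 were lower in KO by differences of -0.60, -0.68 and -1.21, while Cd48 and Slamf1 had higher KO means by 0.14 and 0.18. Of 6 erythroblast markers, 5 had a higher KO mean, and the summed linear signal of the 6 was 497 to 513 on the KO arrays against 119.5 to 123 on the WT arrays. Most of the KO sum came from Rhag and Ermap, with differences of 3.67 and 3.97. Slc4a1 went the other way, at 2.999 and 3.61 in KO, against 4.15 and 4.38 in WT, a difference of -0.96 ± 0.24 (SE). Of 17 neutrophil markers, 16 had a higher KO mean, with summed signals of 13885 to 13991 in KO against 9658 to 11968 in WT. Mpo, Elane, Prtn3 and Ctsg made up most of this sum on every array, with differences of 0.06, 0.53, 0.48 and 0.52. The largest difference of the 17 was that of Camp, at 1.80, while Cxcr2, Mmp8 and Ly6g differed by 0.10, 0.15 and -0.06. The erythroblast marker Epb42 and the neutrophil markers Chil3, Ly6g, Mmp9 and Retnlg lay below the median gene on all 4 arrays. Macrophage and dendritic markers, with 8 of 13 means higher, summed to 2097 to 2161 in KO against 1217 to 1281 in WT. Among them the class II genes H2-Aa, H2-Eb1 and H2-Ab1 differed by 1.73, 1.48 and 0.92, Csf1r by 0.18 and Cd68 by -0.26, and Adgre1, C1qb, C1qc, Mrc1 and Vcam1 lay below the median gene on all arrays. Platelet and megakaryocyte markers had 5 of 7 means higher and summed to 463 to 467 in KO against 291 to 330.1 in WT. Gp6 and Ppbp lay below the median gene. Most of the gap between these sums came from Pf4, at 7.65 and 7.66 in KO, against 6.01 and 6.76 in WT. B lineage markers had 3 of 10 means higher and summed to 371 to 376 in KO against 447 to 532 in WT. The lower KO sum rested on Jchain, at 5.62 and 5.75 in KO, against 7.06 and 7.74 in WT. Cd79a, Ms4a1, Pax5, Vpreb1 and Vpreb3 lay below the median gene. T and NK markers had 6 of 10 means higher and summed to 1328 to 1404 in KO against 888 to 1211 in WT. Of these, 8 of the 10 lay below the median gene, Cd3d and Cd3e among them. Most of the T and NK sum on every array came from a single gene, Nkg7, at 10.27 and 10.36 in KO, against 9.64 and 10.11 in WT. In such bulk samples fewer cells of a type and less RNA per cell cannot be told apart, and the part of these cells in the values below was not tested.

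Initiation factor transcripts lay mostly somewhat higher in KO, by less than the test across all genes could call. The median difference of the 43 genes was 0.26, against -0.001 for all genes. A higher KO mean was seen for 34 of the 43, against 49.7% of all genes. In limma 0 of the 43 passed an adjusted p of 0.05 in either direction, against 0.397% of all genes called higher and 0.113% called lower. At an unadjusted p under 0.05, 11 were higher and 1 was lower, against 10.5% and 6.93% of all genes. By a looser rule, at least 1.5-fold with an unadjusted p under 0.01, 3 genes were higher (Eif4ebp1, Eif1ad and Eif2b3) and 0 lower, against 4.08% and 2.24% of all genes. Both KO arrays lay above both WT arrays for 22 of the 43 and below them for 4, against 25.1% and 22.9% of all genes.

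These genes are bright ones, and bright genes as a whole leaned the same way. Of the 43, 38 lay among the brightest 5545 genes, a set added after the data were seen. At an unadjusted p under 0.05, 25.6% of the 43 were higher in KO, close to 22.7% of these bright genes. Lower ones made up 2.33% of the 43 and 9.99% of the bright genes. A higher KO mean was seen for 79.1% of the 43 and 59.8% of the bright genes, whose median difference was 0.11. Both KO arrays lay above both WT arrays for 51.2% of the 43 and 41.2% of the bright genes, and below them for 9.30% and 23.6%.

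**Figure D1:**
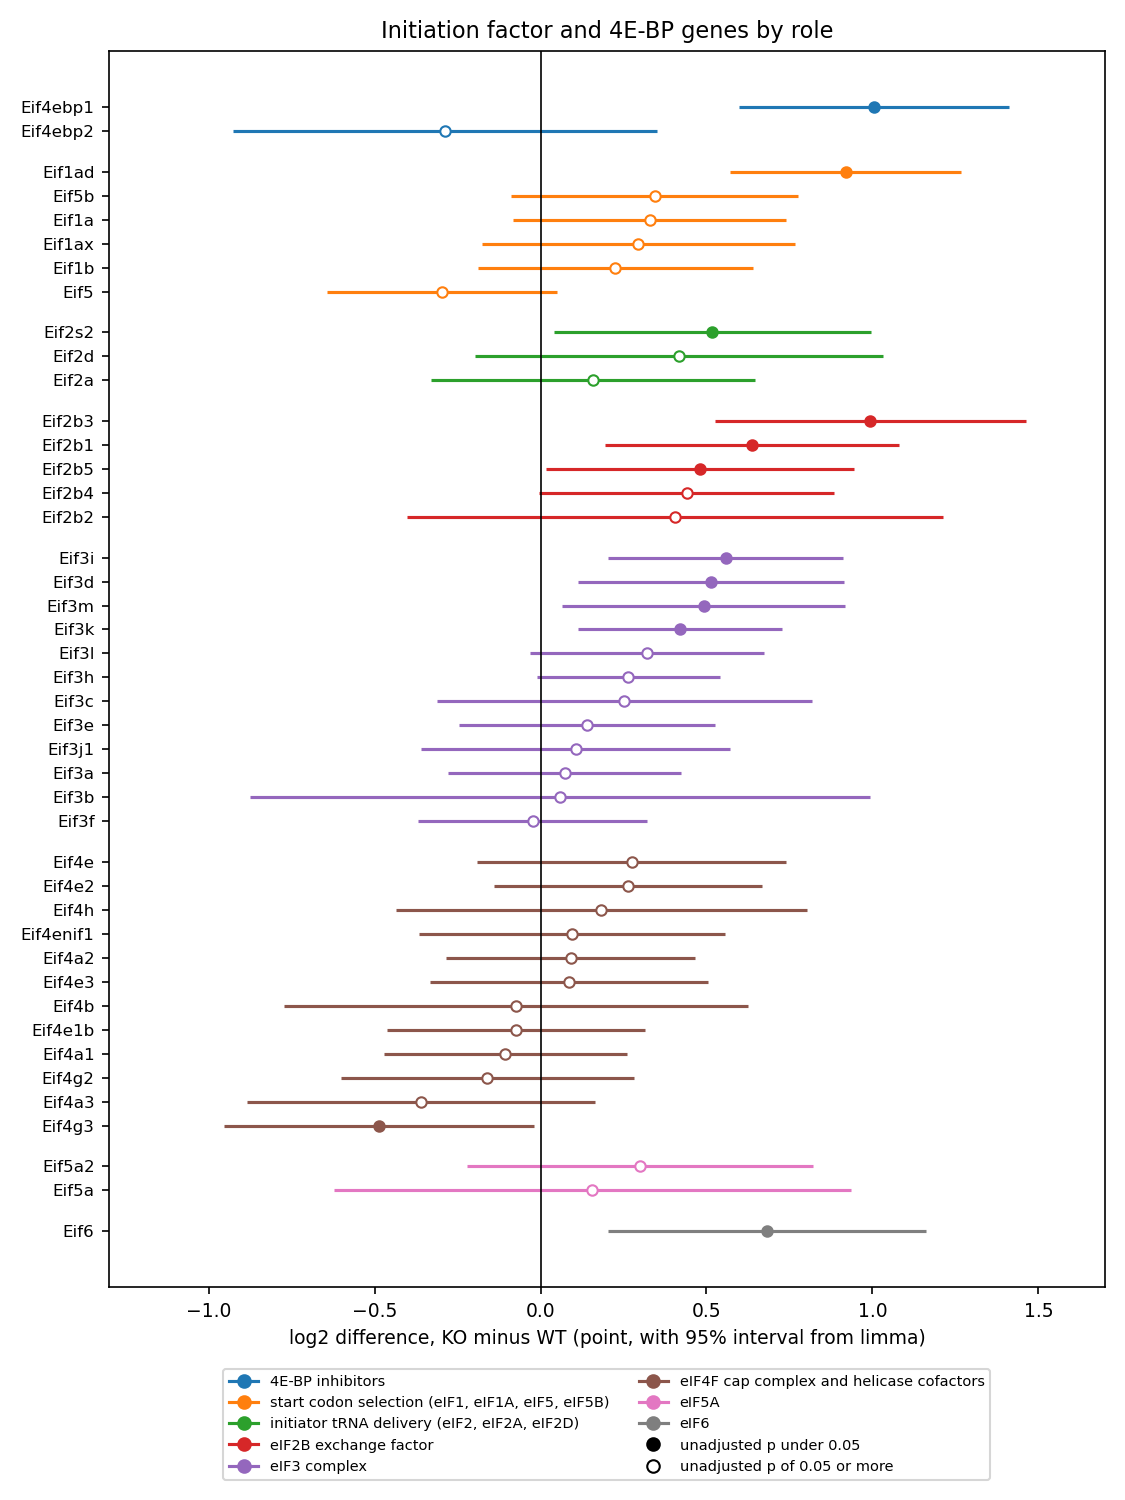
Log2 difference, KO minus WT, of the 43 initiation factor and 4E-BP genes (points) with 95% limma intervals (bars), ordered within each role. Filled points have an unadjusted p under 0.05: 11 lie to the right of 0 and 1, Eif4g3, to the left.

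Eif4ebp1 had the largest difference of the 43. It encodes 4E-BP1, the translational repressor that binds eIF4E when mTORC1 is inactive, and its gene is a known target of ATF4. Eif4ebp1 was at 8.18 and 8.21 on the KO arrays, against 7.30 and 7.08 on the WT arrays. Both KO values lay well above both WT values, and replicates differed little within either group. The difference was 1.004 ± 0.17 (SE), or 2.01-fold, and missed the threshold (limma adjusted p = 0.071). With dimmer genes (below the median level) left out of the fit, its adjusted p was 0.047.

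Eif4ebp2 encodes the paralog 4E-BP2. Its values were 6.60 and 6.47 in KO, against 7.19 and 6.45 in WT, so the KO arrays lay near the lower WT array and inside the WT range. The difference was -0.29 ± 0.27 (SE, limma adjusted p = 0.65), with a 95% interval from -0.93 to 0.35. Its direction rested on WT replicate 1: the difference was 0.08 without that array and -0.66 without WT replicate 2. The probe set shared by Eif4ebp3 and Ankhd1 was at 6.28 and 6.06 in KO, against 7.88 and 6.89 in WT. Its difference was -1.21 ± 0.36 (SE, limma adjusted p = 0.21 over all probe sets). Which of these genes gave that signal was not tested.

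None of the 5 eIF2B subunit genes passed the adjusted threshold. All 5 had a higher KO mean, with a median difference of 0.48, and in 4 of the 5 both KO arrays lay above both WT arrays. The shares were 49.7% and 25.1% of all genes, and 59.8% and 41.2% of the brightest 5545 genes. Eif2b3, for the gamma subunit of the catalytic arm, was at 6.75 and 6.96 in KO, against 5.72 and 6.01 in WT. Its difference of 0.99 ± 0.20 (SE), or 1.99-fold, had a limma adjusted p of 0.089.

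The alpha subunit gene Eif2b1, whose product senses phosphorylated eIF2 with the beta and delta subunits, was at 8.76 and 8.75 in KO, against 7.92 and 8.31 in WT (difference 0.64 ± 0.18, SE, adjusted p = 0.16). Eif2b5, for the catalytic epsilon subunit, was at 6.87 and 6.95 in KO and at 6.60 and 6.26 in WT. That is a difference of 0.48 ± 0.19 (SE, adjusted p = 0.27), or 0.31 without WT replicate 2. For both genes the groups did not overlap, and the WT arrays stood farther apart than the KO arrays.

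The delta subunit gene Eif2b4 was at 5.66 and 5.75 in KO, against 5.39 and 5.14 in WT, with a difference of 0.44 ± 0.18 (SE, adjusted p = 0.29). Eif2b2, for the beta subunit, was the exception. It was at 7.96 and 7.92 in KO, against 8.06 and 6.999 in WT. The KO arrays lay between the WT arrays, and the difference of 0.40 ± 0.34 (SE) had an interval from -0.40 to 1.21.

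eIF2 itself was measured through its beta subunit gene. Eif2s2 was at 5.43 and 5.40 in KO, against 4.71 and 5.09 in WT, without overlap (difference 0.52 ± 0.20, SE, limma adjusted p = 0.25). Without WT replicate 1 the difference was 0.33, at an unadjusted p of 0.089. Eif2a encodes eIF2A, a separate protein that can deliver initiator tRNA without eIF2, and Eif2d encodes eIF2D, which acts in reinitiation. Their differences were 0.16 ± 0.20 and 0.42 ± 0.26 (SE), and KO and WT arrays overlapped for both.

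Of 12 eIF3 subunit genes 11 had a higher KO mean, against 59.8% of the brightest 5545 genes. The median difference of the 12 was 0.26, and Eif3f, the exception, turned positive when arrays were centred on their median gene. Eif3i, Eif3d, Eif3m and Eif3k were higher at an unadjusted p under 0.05, as were 22.7% of the bright genes. Eif3i was at 11.09 and 10.998 in KO, against 10.33 and 10.64 in WT. Its product sits in a module with eIF3b and eIF3g, and its difference of 0.56 ± 0.15 (SE) had a limma adjusted p of 0.14.

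Eif3d, whose product can itself bind the cap of some mRNAs, was at 10.52 and 10.61 in KO, against 10.25 and 9.86 in WT (difference 0.51 ± 0.17, SE, adjusted p = 0.19). The Eif3d difference was 0.32 without WT replicate 2, and 0.17 at an unadjusted p of 0.36 when its probe sets were averaged. Eif3m was at 10.36 and 10.38 in KO, against 9.65 and 10.10 in WT, a difference of 0.49 ± 0.18 (SE, adjusted p = 0.23), or 0.27 without WT replicate 1. Eif3k, for a small peripheral subunit, was at 10.44 and 10.38 in KO, against 9.95 and 10.03 in WT, a difference of 0.42 ± 0.13 (SE, adjusted p = 0.18). In these 3 genes, as in Eif3i, both KO arrays exceeded both WT arrays.

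The scaffold genes looked different from one another. Eif3a was near equal, at 8.85 and 8.80 in KO and at 8.74 and 8.77 in WT, a difference of 0.07 ± 0.15 with an interval from -0.28 to 0.42. Eif3b was at 8.60 and 8.54 in KO, while the WT arrays stood at 9.16 and 7.87. Eif3c was at 8.76 and 8.76 in KO, against 8.84 and 8.18 in WT.

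In Eif3b and Eif3c the KO arrays agreed closely and lay between WT arrays that were far apart. The Eif3b difference was 0.06 ± 0.39 (SE), and it was 0.70 without WT replicate 1 and -0.59 without WT replicate 2. The Eif3c difference was 0.25 ± 0.23 (SE), with 0.58 and -0.08 on the same omissions. The other subunit genes, Eif3e, Eif3f, Eif3h, Eif3j1 and Eif3l, had differences from -0.02 for Eif3f to 0.32 for Eif3l. In Eif3h and Eif3l both KO arrays lay above both WT arrays.

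Promoters are shown for the eIF3 genes Eif3k and Eif3d, both among the 11 higher genes above and with windows that hold a searched motif, and for Eif1ad and Eif4g3, the factor genes with an entry that had the largest positive and the largest negative difference. Each is the 250 bases before the RefSeq start on GRCm38.p6, read along the gene, and capitals mark a motif match. Eif3k is at chr7:28981889-28982138 (minus strand), Eif3d at chr15:77970825-77971074 (minus), Eif1ad at chr19:5366563-5366812 (plus) and Eif4g3 at chr4:137993205-137993454 (plus).
Eif3k: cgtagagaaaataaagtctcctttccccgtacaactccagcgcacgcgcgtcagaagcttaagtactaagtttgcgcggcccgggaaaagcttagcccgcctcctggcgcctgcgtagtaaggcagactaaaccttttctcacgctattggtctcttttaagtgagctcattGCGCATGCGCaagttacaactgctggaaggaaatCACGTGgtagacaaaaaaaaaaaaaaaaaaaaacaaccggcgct
Eif3d: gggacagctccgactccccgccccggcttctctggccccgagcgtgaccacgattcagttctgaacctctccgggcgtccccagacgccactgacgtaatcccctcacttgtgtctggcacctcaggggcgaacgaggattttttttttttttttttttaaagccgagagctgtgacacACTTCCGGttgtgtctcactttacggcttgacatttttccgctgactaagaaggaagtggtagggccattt
Eif1ad: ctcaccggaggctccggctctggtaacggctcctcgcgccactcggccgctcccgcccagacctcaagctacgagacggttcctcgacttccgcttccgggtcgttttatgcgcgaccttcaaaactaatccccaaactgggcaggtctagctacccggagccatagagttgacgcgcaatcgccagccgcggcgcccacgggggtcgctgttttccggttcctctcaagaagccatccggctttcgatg
Eif4g3: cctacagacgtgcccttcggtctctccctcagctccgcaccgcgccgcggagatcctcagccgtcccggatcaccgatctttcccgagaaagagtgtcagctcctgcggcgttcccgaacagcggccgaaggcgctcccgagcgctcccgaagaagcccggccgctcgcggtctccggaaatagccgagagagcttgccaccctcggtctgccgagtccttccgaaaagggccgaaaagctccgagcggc

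In all, 33 of the 43 genes had a promoter entry. Eif1a, Eif2b3, Eif3e, Eif3h, Eif3i, Eif4e1b, Eif4e3, Eif4ebp1, Eif4g2 and Eif6 had none and were not searched. Both strands of the others were searched for 5 short motifs. The E-box CACGTG, bound by Myc among others, was in 6 of the 33 windows (18.2%), against 6.05% of 27025 RefSeq windows of the same length. The ETS motif CCGGAAGT was in 3 windows (9.09%), against 2.93%. The NRF1 motif (the first stretch of capitals in the Eif3k window) and the YY1 motif AAGATGGC were each in 1 window (3.03%), against 0.781% and 1.59%. The ATF4 and C/EBP motif TGATGNAA was in 0 of the 33 windows, which do not include that of Eif4ebp1, against 3.53%. Of the genes at an unadjusted p under 0.05, Eif3k held the E-box and the NRF1 motif and Eif3d the ETS motif. The E-box was also in the windows of Eif1b, Eif3f, Eif4a1, Eif4h and Eif5a2, whose differences ran from -0.11 to 0.30. The ETS motif was also in the windows of Eif3l and Eif5a2, and the YY1 motif in that of Eif4a1, none of them at an unadjusted p under 0.05. The RefSeq windows were not matched to those of the members in gene brightness or base content, so a higher share is not a trait particular to the members. A match is a description of these letters and not a measured site.

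Among the genes of start codon choice, Eif1ad stood apart. Its product shares the domain of eIF1A and is not a canonical initiation factor. Eif1ad was at 9.62 and 9.65 in KO, against 8.78 and 8.65 in WT, and replicates lay close together in both groups. The difference of 0.92 ± 0.14 (SE), or 1.89-fold, had the smallest adjusted p of the 43 (limma adjusted p = 0.063). The adjusted p was 0.041 when genes below the median level were left out.

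The eIF1A genes Eif1a and Eif1ax had differences of 0.33 ± 0.17 and 0.29 ± 0.20 (SE), and Eif1b, a paralog of eIF1, had 0.23 ± 0.17. Eif5b, for the GTPase of subunit joining, was 0.34 ± 0.18 (SE) higher. In all 4 genes both KO arrays lay above both WT arrays by small margins, as in 41.2% of the brightest 5545 genes. Eif5, which encodes the GTPase-activating protein of eIF2, went the other way. It was at 9.08 and 8.96 in KO, against 9.34 and 9.29 in WT, a difference of -0.30 ± 0.14 (SE, limma adjusted p = 0.35). Eif1a and Eif1ax are close paralogs, and their probe sets may share signal.

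The cap complex showed no common direction. Of 12 genes for eIF4E, eIF4G and eIF4A proteins and their cofactors, 6 had a higher and 6 a lower KO mean, with a median of 0.01 (7 and 5 after quantile normalization, which turned the sign of Eif4e1b). Eif4e, for the cap-binding protein, was at 8.86 and 8.79 in KO, against 8.33 and 8.78 in WT (difference 0.27 ± 0.19, SE, limma adjusted p = 0.53). Only WT replicate 1 lay clearly below the other 3 arrays, and without it the difference was 0.05. Eif4a1, for the main helicase, was at 9.06 and 8.87 in KO, against 9.05 and 9.10 in WT. Its difference of -0.11 ± 0.15 (SE) had an interval from -0.47 to 0.26.

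Eif4g3 encodes eIF4GII, a paralog of the eIF4G scaffold, and was the gene that was lower at an unadjusted p under 0.05. It was at 6.75 and 6.64 in KO, against 7.36 and 7.01 in WT, so the groups did not overlap. The difference of -0.49 ± 0.19 (SE) had a limma adjusted p of 0.27, and it was -0.31 without WT replicate 1. Its unadjusted p was 0.098 with arrays centred on their median gene and 0.060 when single probe sets were tested. Eif4g2, for the related protein DAP5, which lacks the eIF4E binding part, had a difference of -0.16 ± 0.18 (SE). Eif4a3, for the helicase of the exon junction complex, was at 6.24 and 6.21 in KO, against 6.83 and 6.33 in WT, a difference of -0.36 ± 0.22 (SE). A brighter probe set, shared by Eif4a3, Eif4a3l1 and Gm5576, was at 9.07 and 9.22 in KO, against 8.94 and 8.57 in WT. Its difference had the opposite sign, 0.39 ± 0.18 (SE, limma adjusted p = 0.37 over all probe sets). Which of these genes gave that signal was not tested, so the direction of Eif4a3 stays unsettled.

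Among the 12 cap complex genes, Eif4b and Eif4h, for helicase cofactors, had the widest gaps between WT arrays. Eif4b was at 9.50 and 9.28 in KO, against 9.91 and 9.02 in WT. Eif4h was at 10.37 and 10.34 in KO, against 10.58 and 9.77 in WT. In both genes the KO arrays lay between the WT arrays, and the differences of -0.07 ± 0.29 for Eif4b and 0.18 ± 0.26 for Eif4h (SE) were smaller than the gap between WT arrays. Eif4e2, for the repressive cap-binding protein 4EHP, had both KO arrays above both WT arrays, with a difference of 0.26 ± 0.17 (SE). Eif4e3, Eif4enif1 and Eif4a2 had differences of 0.09 to 0.10. Eif4e1b, an oocyte form of eIF4E, was dim on all arrays, at 3.70 to 3.84, and its difference was -0.07.

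Eif6 encodes the factor that keeps the large ribosomal subunit from joining the small one too early and that also acts in large subunit maturation. It was at 9.45 and 9.41 in KO, against 8.999 and 8.495 in WT. Both KO arrays exceeded both WT arrays, and the difference of 0.68 ± 0.20 (SE) had a limma adjusted p of 0.16. It was 0.43 without WT replicate 2.

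Eif5a encodes eIF5A, the hypusine-carrying factor that now is known mainly for elongation. It was at 7.93 and 7.90 in KO, between WT arrays at 8.27 and 7.25. The difference was 0.16 ± 0.32 (SE), and it was 0.66 without WT replicate 1 and -0.35 without WT replicate 2. Its paralog Eif5a2 was dim, at 4.01 and 4.47 in KO and at 3.82 and 4.06 in WT, a difference of 0.30 ± 0.22 (SE). The 3 genes set apart by name showed no large difference. Eif1-ps3 differed by 0.01 ± 0.18, Eif4a3l1 by -0.34 ± 0.18 and Eif2c5 by 0.06 ± 0.26 (SE).

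**Figure D2:**
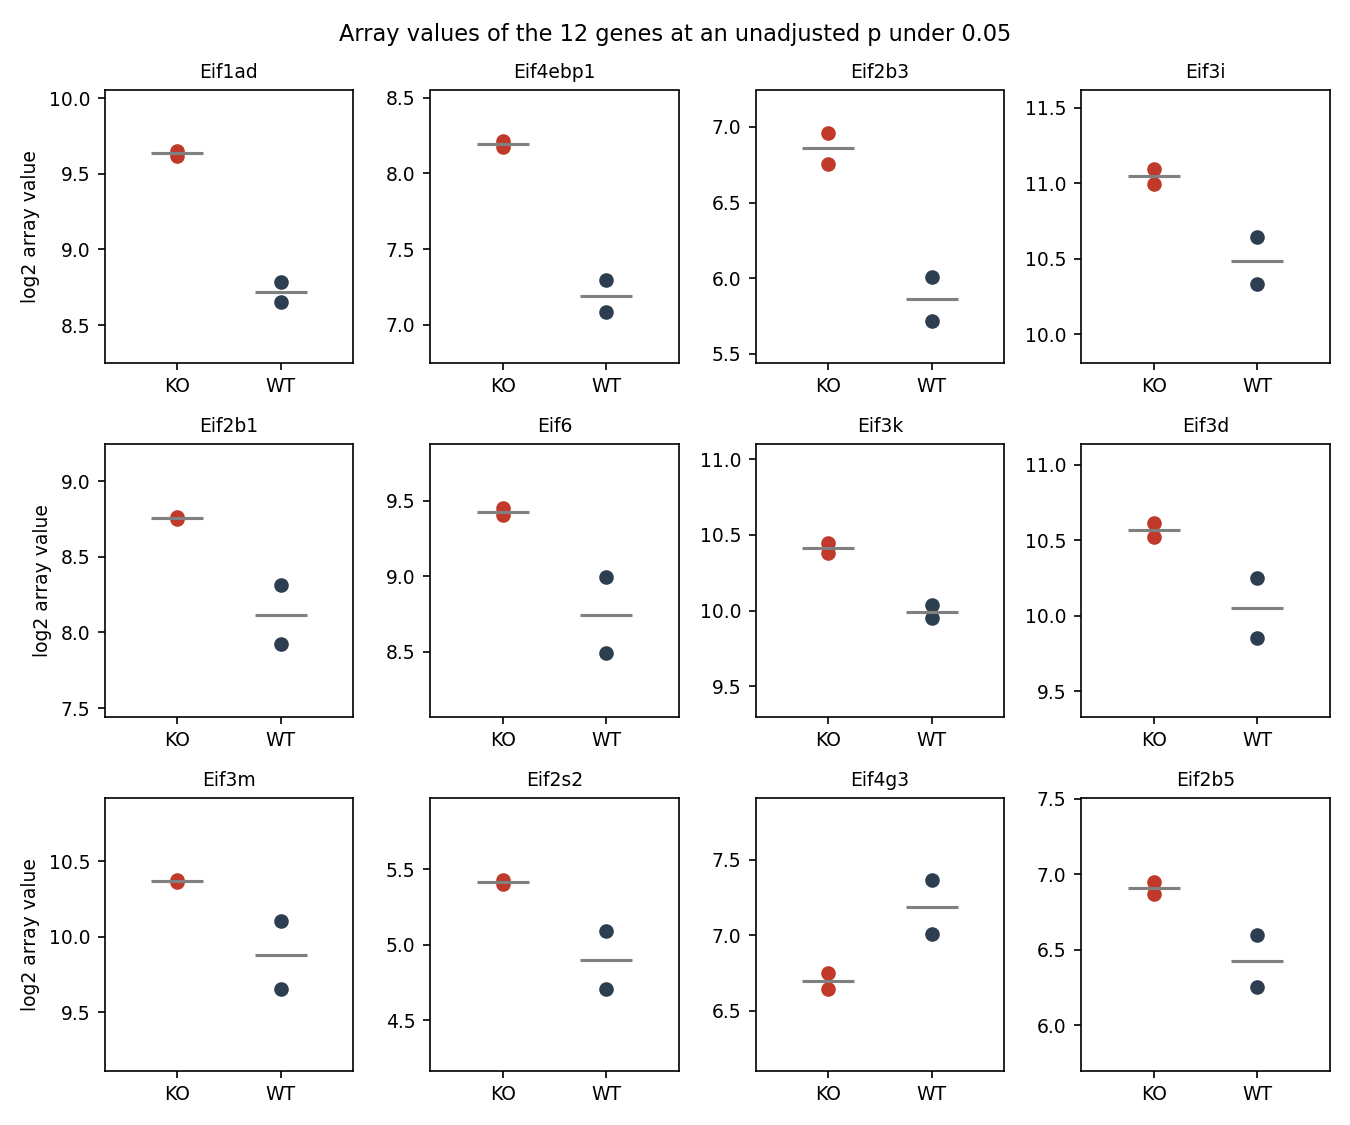
Log2 array values of the 12 genes at an unadjusted p under 0.05, ordered by that p, with KO arrays on the left and WT arrays on the right of each panel. Points are arrays, grey lines are group means, and every vertical axis spans the same range. The groups overlap in none of the 12 panels, but choosing genes by that p itself favours groups that lie apart. Over all genes, both KO arrays lay above both WT arrays for 25.1% and below them for 22.9%.

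The WT arrays differed from each other more than the KO arrays did. Over the 43 genes the median gap between replicate arrays was 0.07 in KO and 0.34 in WT. A gap over 0.5 was seen for 0 genes in KO and for 10 in WT. Among the brightest 5545 genes, 0.631% had such a gap in KO and 28.6% in WT, so the wide WT spread was not limited to these genes. In each of the 10 genes WT replicate 1 was the higher array, as in 69.7% of the bright genes with such a gap. The 10 were Eif2b2, Eif2d, Eif3b, Eif3c, Eif4a3, Eif4b, Eif4ebp2, Eif4h, Eif5a and Eif6.

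For 12 of the 43 genes both KO arrays lay between the WT arrays (27.9%), against 21.2% of the bright genes. The calls moved with the array left out. With WT replicate 1 left out, limma called 17 of the 43 higher and 0 lower, against 6.5% and 1.41% of all genes. With WT replicate 2 left out it called 13 higher and 6 lower, against 7.8% and 5.73% of all genes. With KO replicate 1 or KO replicate 2 left out it called 0 members and 0 genes in all. Then Eif4ebp1, Eif1ad and Eif2b3 were the 3 members higher at an unadjusted p under 0.05 in each fit, against 3.77% of all genes without KO replicate 1 and 4.39% without KO replicate 2. Where 1 array of a group was left, it was assumed to vary like the arrays of the other group, and the KO arrays varied little. The median over the 43 stayed between 0.23 and 0.30 through these omissions.

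**Figure D3:**
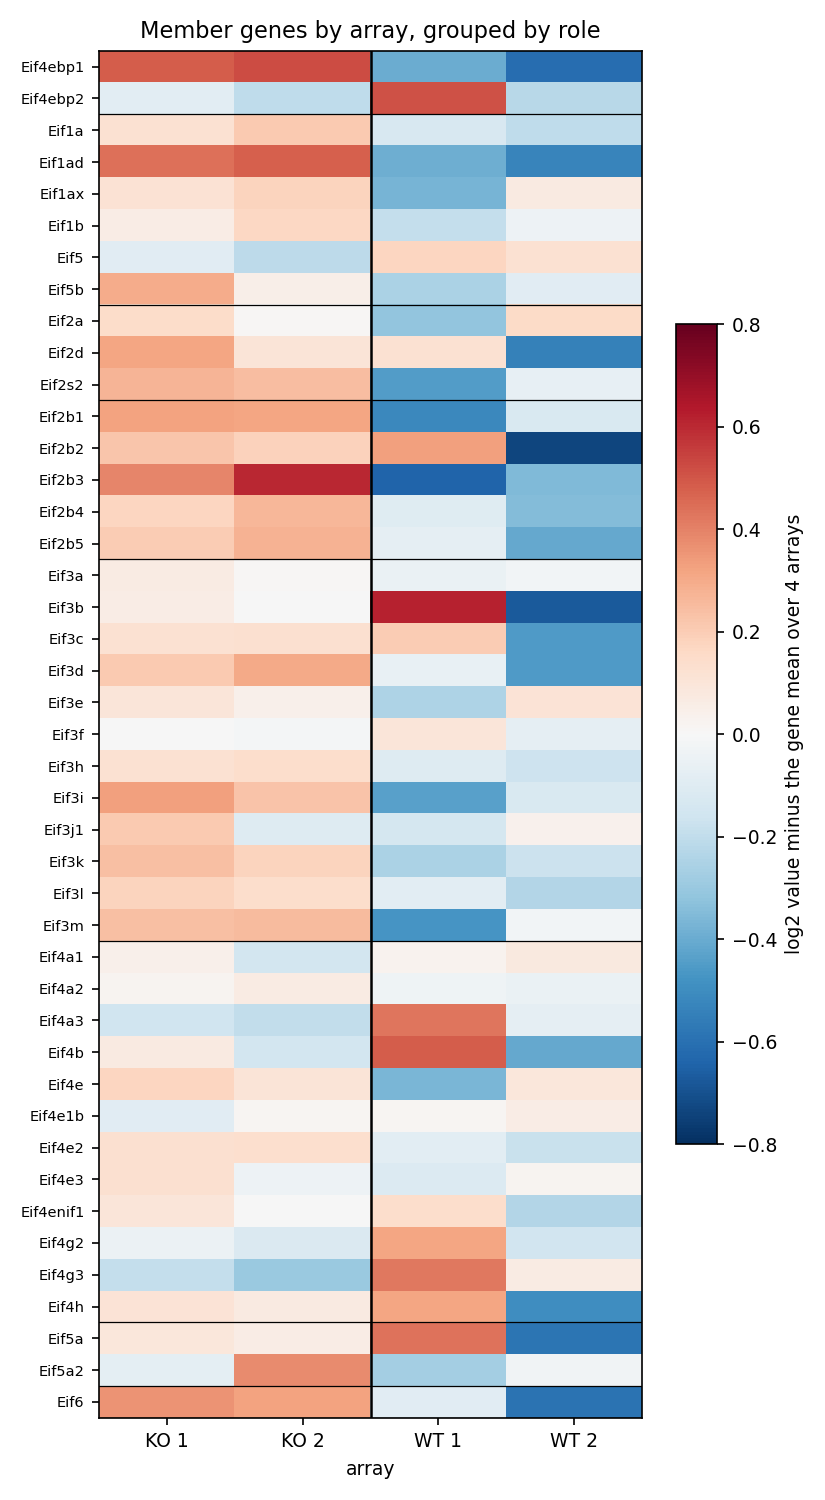
Log2 value of each of the 43 genes on each array, minus that gene's mean over the 4 arrays (red above, blue below; the colour scale ends at 0.8 either way). KO arrays are left of the vertical line and WT arrays right of it, and horizontal lines separate the roles. The KO columns look alike, while the WT columns differ in genes such as Eif3b and Eif2b2.

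**Figure D4:**
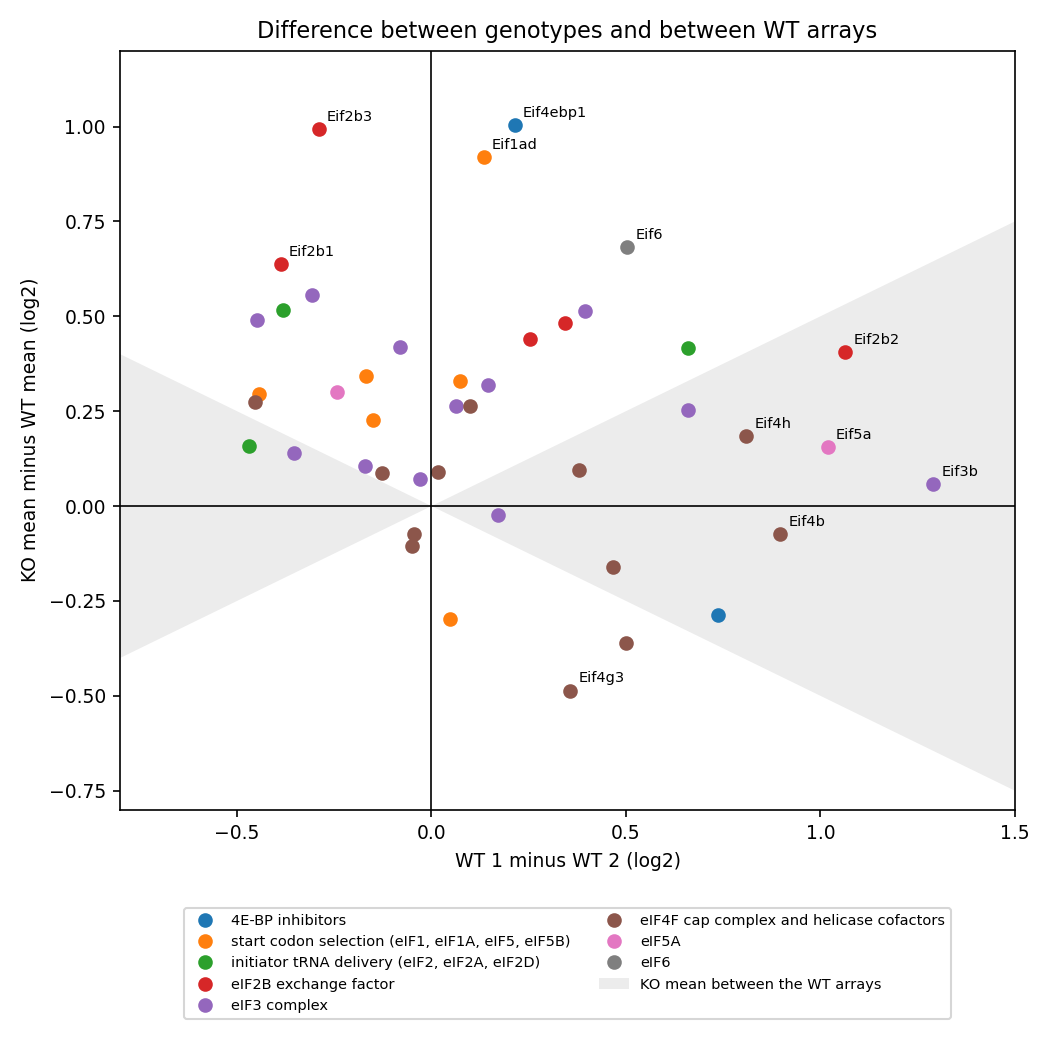
KO mean minus WT mean (vertical axis) against WT replicate 1 minus WT replicate 2 (horizontal axis), both log2, for the 43 genes coloured by role. In the grey wedges the KO mean lies between the WT arrays. Eif4ebp1, Eif1ad and Eif2b3 lie far above the wedges, and Eif3b, Eif5a and Eif4b lie inside them.

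Some genes had more than 1 probe set annotated to them alone, and the brightest of these was used. Probe sets shared with other genes were not used, even where they were brighter. The second probe set of Eif3d was dim, at 3.08 and 3.10 in KO and at 3.23 and 3.30 in WT, with a difference of -0.18. Eif4a1 had a second probe set with a difference of 0.04. The other probe sets annotated to Eif4a2 alone, at -0.18 and -0.06, were also dimmer. For all 3 genes a dimmer probe set thus had the opposite sign, by amounts within its SE of 0.17 to 0.39 except for Eif3d, whose difference of -0.18 slightly exceeded its SE of 0.17. Brighter probe sets that Eif4a2 shares with another gene disagreed in sign. The one shared with Rfc4 had a difference of 0.83 ± 0.26 and the one shared with Snord2 -0.68 ± 0.25 (SE, limma adjusted p = 0.22 and 0.28 over all probe sets). A dimmer one, shared with Snora81, was at 0.22 ± 0.30 (SE). Which gene gave these signals was not tested, so the direction of Eif4a2 stays unsettled.

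Related steps of translation and its control were described through 7 lists of genes. None of the 7 had a member past the adjusted threshold in limma. Their counts at an unadjusted p under 0.05 stand beside the 10.5% of all genes higher and 6.93% lower. Many of the listed genes are bright, and among the brightest 5545 genes the shares were 22.7% higher and 9.99% lower. The factors of mitochondrial initiation and elongation had the largest median, 0.49, with 8 of 9 means higher and 5 higher at an unadjusted p under 0.05. Mtif2 and Mtif3, the mitochondrial initiation factors, were 0.49 ± 0.17 and 0.54 ± 0.18 higher (SE, adjusted p = 0.21 each), and the elongation factor gene Tsfm was 0.86 ± 0.16 higher (adjusted p = 0.085). Cytosolic elongation and termination factors had a median of 0.07 over 14 genes, of which 4 were higher at an unadjusted p under 0.05. They were Eef1d at 0.58 ± 0.15, Eef1e1 at 0.84 ± 0.21, the ribosome rescue gene Pelo at 0.65 ± 0.18 and Dhps, for the enzyme that begins the hypusine modification of eIF5A, at 0.45 ± 0.17 (SE). Despite its name, Eef1e1 encodes a protein of the multi-tRNA synthetase complex and not an elongation factor. Eef2 and Eef1a1 were at -0.07 ± 0.28 and -0.15 ± 0.10 (SE).

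Kinases and phosphatase regulators of eIF2 had a median of -0.14 over 10 genes, with 2 higher means. Impact, whose product restrains the eIF2 kinase GCN2, was at 6.27 and 6.07 in KO, against 7.35 and 7.02 in WT. That difference of -1.01 ± 0.20 (SE) had a limma adjusted p of 0.088. Eif2ak4, which encodes GCN2, was at 7.04 and 6.94 in KO, against 7.44 and 7.36 in WT, a difference of -0.41 ± 0.17 (SE, adjusted p = 0.28). Eif2ak1, for the heme-regulated kinase of red cell precursors, was at -0.01 ± 0.23, and Ppp1r15a, for the stress-induced phosphatase subunit, at -0.56 ± 0.32 (SE). A brighter probe set shared by Eif2ak1 and Aimp2 had a difference of 0.96 ± 0.23 (SE, limma adjusted p = 0.15 over all probe sets). Which gene gave that signal was not tested.

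ATF4 and its targets, which respond when eIF2 is phosphorylated, were mixed. Of 19 genes 12 had a higher mean, with a median of 0.13, and at an unadjusted p under 0.05 there were 5 higher genes and 2 lower ones. Atf4 itself was at 10.59 and 10.61 in KO, against 10.66 and 10.65 in WT, a difference of -0.06 ± 0.12 (SE). Asns, the asparagine synthetase gene, was at 7.57 and 7.69 in KO, against 6.495 and 6.57 in WT. The Asns difference of 1.10 ± 0.17 (SE) had a limma adjusted p of 0.062. Slc7a5, an amino acid transporter gene, was 0.65 ± 0.17 higher and Atf3 was at -0.85 ± 0.23 (SE), while the stress genes Chac1, Trib3 and Ddit3 were at -0.17, -0.21 and -0.12. Vldlr was at -0.97 ± 0.17 and Nupr1 at 0.81 ± 0.17 (SE).

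Signalling genes from mTORC1 to 4E-BP and eIF4E had a median of 0.03 over 16 genes. Mtor was at 7.18 and 6.97 in KO, between WT arrays at 7.53 and 6.71. Deptor, an mTOR inhibitor gene, was at -0.49 ± 0.17, and Tbc1d7, a subunit gene of the TSC complex, at 0.63 ± 0.22 (SE, adjusted p = 0.22 each). Mknk2, for a kinase of eIF4E, was at 7.25 and 7.22 in KO, while the WT arrays stood at 8.72 and 6.69. In 9 of these 16 genes the WT arrays differed by over 0.5.

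Cofactors of the cap and the poly(A) tail had a median of -0.02 over 14 genes. Pabpc1, the main cytoplasmic poly(A) binding protein gene, was at 9.29 and 9.14 in KO, against 9.78 and 9.51 in WT (difference -0.43 ± 0.16, SE, limma adjusted p = 0.24). Paip2, which encodes an inhibitor of that protein, was at -0.36 ± 0.14, and Ncbp2, for the small nuclear cap-binding subunit, at 0.58 ± 0.18 (SE). Of 6 genes of reinitiation, recycling and internal initiation, 2 were higher at an unadjusted p under 0.05. They were Denr, whose product acts with MCTS1 in reinitiation, at 0.64 ± 0.15, and Cirbp at 0.48 ± 0.18 (SE). Mcts1 was at 0.25 ± 0.24 (SE).

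**Figure D5:**
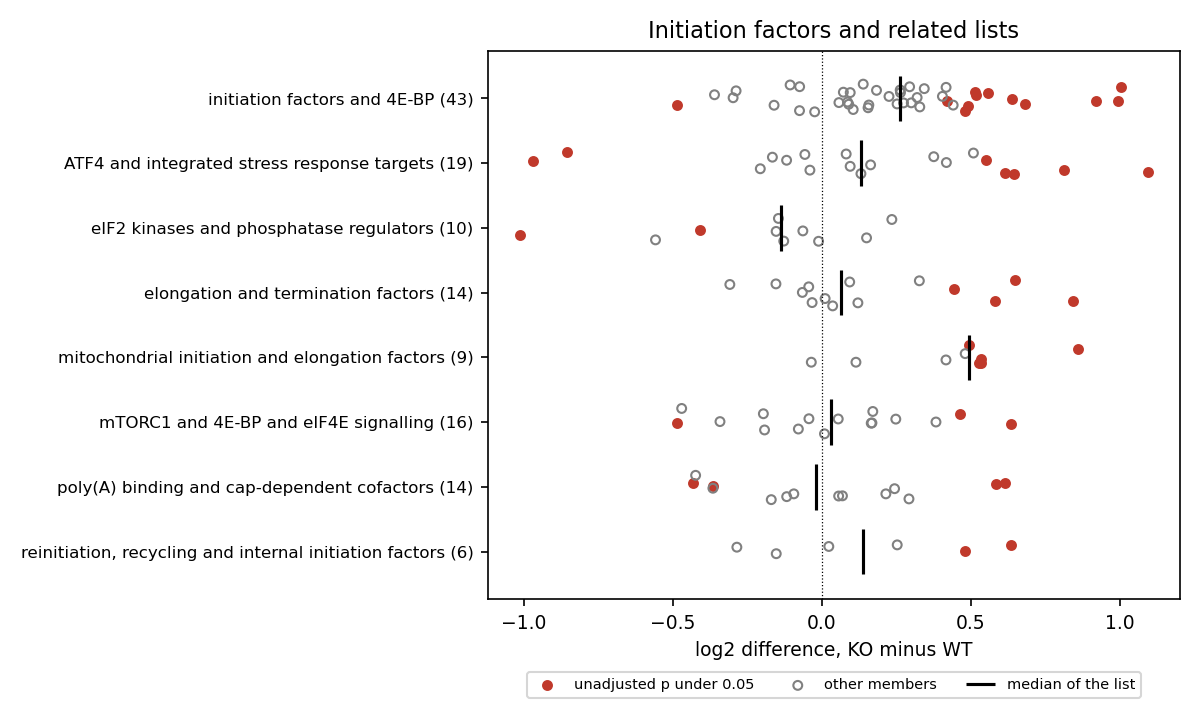
Log2 difference, KO minus WT, of the 43 initiation factor and 4E-BP genes and of the members of 7 related lists, with the number of genes in brackets. Red points have an unadjusted p under 0.05, open points do not, and the black line is each list's median, which runs from -0.14 for the eIF2 kinases and phosphatase regulators to 0.49 for the mitochondrial factors.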

How the data were processed

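Sorted LSK cells of 2 KO and 2 WT samples were measured on 4 arrays. The deposited table holds log2 values for 41345 probe sets. Per the submitters' processing notes RMA and Affymetrix Expression Console 1.2.1 were used; their settings, filters and genome build: not given in the sources used here. The log2 scale was taken from the values. RMA compresses dim values, so folds of dim genes are understated. Arrays have no depth, and 2 per group limit the precision; no detection calls, scan dates or scanner files were used. Of the probe sets, 23521 had 1 gene in the platform annotation, 1814 had several and 16010 were unlisted. Each gene took its probe set of highest mean, giving 22180 genes, with no filter. Genotypes were compared (KO minus WT) by limma 3.58.1 under R 4.3.3, with an intensity trend and two-sided p-values adjusted by Benjamini-Hochberg over all genes at 0.05. Promoters came from RefSeq, GRCm38.p6. The members and lists were chosen with earlier results of these data known. By rule, array values are given for members at an unadjusted p under 0.05, the 4E-BP genes, Eif4e, Eif4a1, Eif2s2, Eif3a, Eif3b, Eif3c, Eif5a and Eif6, and up to 4 genes of smallest p per related list; other members and list genes with values, and the promoters shown, were chosen after their values were seen. The test was checked on simulated data. There it called 0% of genes at a true log2 difference of 0.5, 3.58% at 1 and 83.3% at 2. Differences of the size seen here would thus rarely pass the adjusted threshold. Alternatives were a replicate block, averaged or single probe sets, a level filter, quantile or median scaling, other variance priors and leaving out each array.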

Additional observations from a re-analysis of the deposited data

How the results depend on the processing

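The median of 0.26 over the 43 genes ran from 0.23 to 0.30 with each array left out, and from 0.24 after quantile normalization to 0.31 with arrays centred on their median gene. Genes called across the array in limma were 88 higher and 25 lower. With genes below the median level left out, which kept 11090 genes and 41 of the 43, they were 208 and 81. They were 142 and 47 after quantile normalization, 196 and 51 with centred arrays, and 10 higher with single probe sets. With each array left out they ran from 0 to 1730 higher and from 0 to 1272 lower. Of the 43 initiation factor and 4E-BP genes, 2 (Eif1ad and Eif4ebp1) were called higher with genes below the median level left out, and 0 to 17 higher and 0 to 6 lower with each array left out. At an unadjusted p under 0.05 the 11 higher genes became 3 to 23 and the 1 lower gene 0 to 9 with each array left out. Over all genes both counts likewise fell with a KO array left out and rose with a WT array left out. Among the 43 the lower count was 2 after quantile normalization, and 0 with centred arrays and with single probe sets. Among the 20 genes recomputed singly, the differences that turned sign with an array left out were those of Eif3b (-0.59 to 0.70), Eif3c (-0.077 to 0.58), Eif4ebp2 (-0.66 to 0.081) and Eif5a (-0.35 to 0.66). The labels give both groups replicates 1 and 2 without saying that a number marks a pair, and deviations of same-numbered arrays correlated at 0.11 across genes. With the replicate block, limma called 83 genes higher and 28 lower, 0 of them among the 43. In that fit an unadjusted p under 0.05 held for 10 higher and 1 lower of the 43, against 2281 and 1753 of all 22180 genes. Eif2b5 was at an unadjusted p of 0.060 in the same limma fit. The cause of these shifts was not tested. The arrays give no detection calls, and 2 arrays a group limit the precision.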
